A study of Homo sapiens with 20 samples.

Results

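In cells overexpressing T7-tagged hnRNP A1, the RNA contacts of the splicing factor SRSF1 were compared, gene by gene, with those of hnRNPA1 itself. The comparison used 5 of the 20 samples of the series, the libraries SRSF1_A1 overexpression 1 to 3 and hnRNPA1_A1 overexpression 1 and 2. Of the 10603 genes with a peak in any of these libraries, the 2299 with a peak in all 5 were compared.

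All libraries came from TREX FLP-In 293T cells, an established epithelial line of human embryonic kidney (titles of other samples in the series write HEK293). The overexpressing cells carry an inducible T7-tagged hnRNP A1, and the control cells carry none by their labels. Cells were selected for 3 days with blasticidin and zeocin, with hygromycin named for the inducible line, and both kinds were kept in tetracycline for 24 h. Whether the inducible line is 1 clone is not given in the sources used here. SRSF1 itself was not overexpressed, whereas the hnRNPA1 libraries can hold tagged and endogenous protein. iCLIP (individual-nucleotide resolution cross-linking and immunoprecipitation) recovers the RNA fragments that a protein touches in living cells, here from nuclear extracts.

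SRSF1 belongs to the SR proteins, named for their serine and arginine repeats, and it binds purine-rich exonic enhancers and promotes the use of nearby splice sites. hnRNPA1 is an abundant nuclear protein that binds UAG-containing sites and often represses splicing. The pair is a textbook case of opposing factors whose balance sets splice site choice. Small nucleolar RNAs (snoRNAs), which recur below, lie mostly within introns of host genes and guide chemical modification of ribosomal RNA.

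The snoRNA genes were among the genes furthest apart between the proteins. The sequences below are shown to let the box elements of these short RNAs be read beside the values. Capitals mark the first TGATGA, the usual form of box C, and the last CTGA, the usual form of box D. SNORD2 and SNORD82 had peaks in all 5 libraries. SNORD32A, SNORD36C and SNORD58C had peaks listed under their own gene IDs in all SRSF1 libraries and in neither hnRNPA1 library. They were chosen after their values were seen. An hnRNPA1 peak listed under another gene, RPL17-C18orf32, covered the span of the SNORD58C peaks (chr18:47015614-47015675, minus strand, hg19). The hnRNPA1 libraries held 53 and 98 reads there, so absence under a gene ID is not absence of signal. Sequences are those of GENCODE v29 transcripts (GRCh38).
SNORD2: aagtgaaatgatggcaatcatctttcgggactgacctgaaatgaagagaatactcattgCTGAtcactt
SNORD82: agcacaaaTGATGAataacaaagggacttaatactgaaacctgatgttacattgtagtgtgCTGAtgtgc
SNORD32A: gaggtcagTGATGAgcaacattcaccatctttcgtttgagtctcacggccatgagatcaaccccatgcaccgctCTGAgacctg
SNORD36C: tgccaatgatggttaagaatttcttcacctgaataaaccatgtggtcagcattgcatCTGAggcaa
SNORD58C: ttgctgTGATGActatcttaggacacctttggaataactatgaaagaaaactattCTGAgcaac
All peaks on SNORD2, over control and overexpressing cells, lay within chr3:186502611-186502643 on the plus strand of hg19, and those on SNORD82 within chr2:232325086-232325113 on the minus strand. Searched on the sense strand alone, 77.3% of 278 annotated SNORD transcripts held TGATGA and 98.2% held CTGA. Among the 25 SNORD transcripts of genes with a higher SRSF1 share, 64% held TGATGA and 96% held CTGA. Among the 24 of genes with peaks in the SRSF1 libraries alone, 70.8% and 100% did. TGATGA was thus no more frequent in either set than over all SNORD transcripts. A match is to these letters only, and a transcript without TGATGA can hold another form of the box.

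The deposited peaks held 175293, 329448 and 271174 reads in the SRSF1 libraries and 549365 and 575471 in the hnRNPA1 libraries. A gene's share is given as rpm, its reads in peaks after scaling each library to 1e+06 reads in peaks. Every peak held at least 6 reads, so the smallest share a gene could show was 34.2, 18.2 and 22.1 rpm for SRSF1 and 10.9 and 10.4 for hnRNPA1. SRSF1 peaks numbered 9175 to 17211 per library and hnRNPA1 peaks 43169 and 44335. With libraries thinned to 175293 reads each, and peaks left under 6 reads then dropped, the means turned to 8143 and 7243. Of 9 marker genes of epithelial or HEK293 cells only VIM had a peak, and KRT8, KRT18 and PAX2 had none. Of 9 hematopoietic markers only LYZ had a peak, in 3 of the 5 libraries. RNA abundance is not part of these lists and no input library was analysed here, so within a single share, more binding per molecule and more RNA of a gene cannot be told apart. Nothing in the labels says that libraries came from separate cultures, so p-values measure the spread between libraries, which may be technical.

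The proteins differed in their share of reads at 1217 of the 2299 genes, which is 52.9% (limma, Benjamini-Hochberg adjusted p under 0.05). SRSF1 had the higher share at 813 genes (35.4%) and hnRNPA1 at 404 (17.6%). At 1590 genes (69.2%) the 3 SRSF1 libraries did not overlap with the 2 hnRNPA1 libraries. The median difference over these 2299 genes was 0.59 on the log2 scale, towards SRSF1. It was 0.24 among 6073 genes with a peak in at least 3 libraries and -0.24 among 10603 genes with no filter. In both of these settings 1 read was added to each sum. The sign of the median thus depended on the filter, and the balance of the calls depended on the scale. Median-of-ratios size factors lowered every difference by 0.58 and gave 539 genes higher for SRSF1 and 592 for hnRNPA1. On that scale 539 of the 813 SRSF1 calls and all 404 hnRNPA1 calls were kept. Libraries thinned to equal reads gave 123 and 189 of 656 genes, with the majority towards hnRNPA1. Thinning left 175293 reads per library, and peaks then under 6 reads were dropped. Shares were taken of the reads that remained, which were no longer equal. This setting thus cannot tell depth apart from the dropping of peaks. The count for hnRNPA1 also moved with single libraries, to 635 of 3120 genes tested without SRSF1 library 1, 247 without hnRNPA1 library 1 and 239 without hnRNPA1 library 2.

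**Figure D1:**
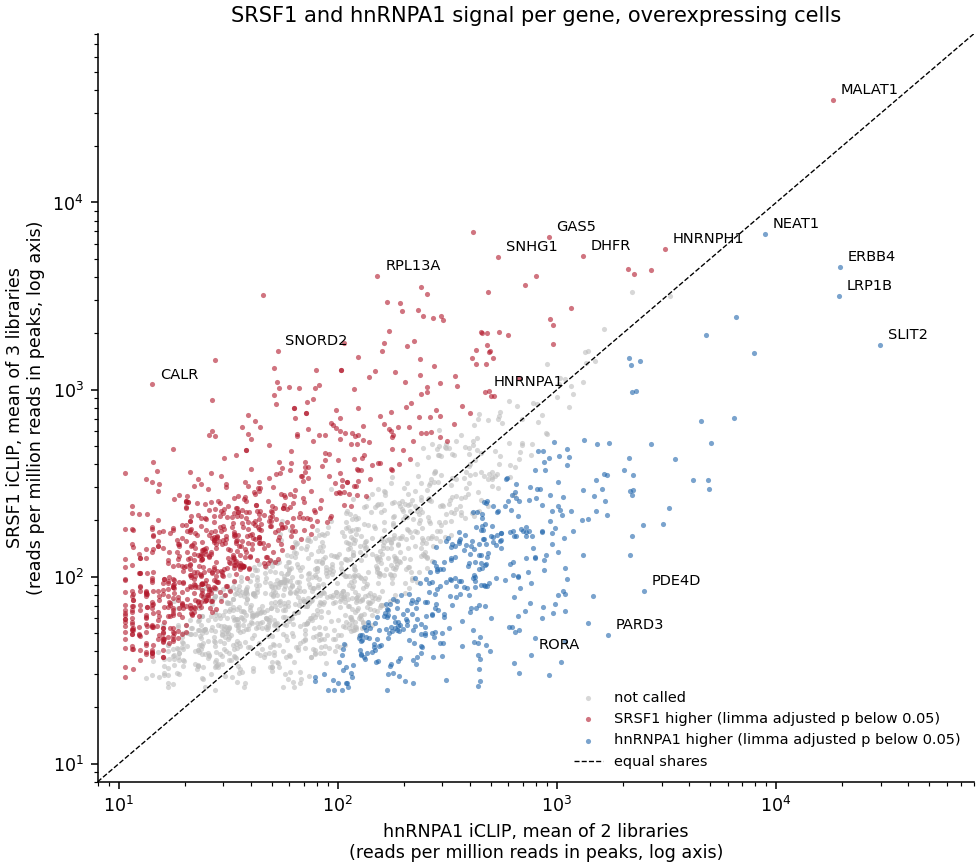
Mean rpm of each gene, hnRNPA1 (2 libraries) on the horizontal and SRSF1 (3 libraries) on the vertical axis, both logarithmic, coloured by the limma call. CALR lies far above the line of equal shares, and SLIT2, LRP1B and ERBB4 lie far below it.

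Nearly all snoRNA genes with peaks in every library had the higher share for SRSF1. Of 29 snoRNA and scaRNA genes (scaRNAs are the related guides of Cajal bodies), 28 were higher for SRSF1 and 1 for hnRNPA1. Their median difference was 2.93, against 0.59 over the 2299 genes tested. The 29 were 27 box C/D genes (SNORD), 1 box H/ACA gene (SNORA) and 1 scaRNA gene, so nearly all that could be tested were SNORD. A further 40 snoRNA and scaRNA genes, of 155 with any peak, had a peak listed under them in all SRSF1 libraries and in neither hnRNPA1 library. The reverse pattern was found for 1. Over all 10603 genes these were 545 and 1340. Peaks listed only under a host gene do not count here. Of these 40, 25 were SNORD, 12 SNORA and 3 scaRNA genes. All snoRNA and scaRNA genes together took 4.21% ± 0.378 of SRSF1 reads (SD, n = 3) and 0.279% ± 0.0922 of hnRNPA1 reads (SD, n = 2). Median-of-ratios factors also gave 28 and 1. Thinning to equal reads left 15 genes, 10 higher for SRSF1 and 1 for hnRNPA1, with a median of 1.5 against -0.34 over all genes. Without peaks overlapping a peak of another gene only 2 of the 29 genes could be tested, both higher for SRSF1.

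SNORD2 had 1888, 1418 and 1534 rpm for SRSF1 and 40.0 and 66.0 for hnRNPA1. Every SRSF1 library lay well above both hnRNPA1 libraries, and the log2 difference was 4.96 ± 0.34 (SE; limma adjusted p = 1.1e-06). SNORD82 had 582, 483 and 649 rpm for SRSF1 and 30.9 and 20.9 for hnRNPA1. None of its SRSF1 values came near the hnRNPA1 values, a difference of 4.48 ± 0.41. SNORD32A had 1295, 1123 and 1202 rpm for SRSF1 and no peak listed under it for hnRNPA1. The exception was SCARNA7, with 126, 137 and 173 rpm for SRSF1 and 368 and 316 for hnRNPA1. Here both hnRNPA1 libraries were the higher ones (-1.25 ± 0.38; limma adjusted p = 0.016), a call lost without hnRNPA1 library 1 (limma adjusted p = 0.10) or 2 (limma adjusted p = 0.061). Counting peaks instead of reads turned its sign, to 2.07.

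Genes that house snoRNAs leaned the same way. All 11 non-coding host genes were higher for SRSF1 (median difference 2.79), as were 36 of 38 protein-coding hosts (median 2.95), with none higher for hnRNPA1 by limma, also at an unadjusted p under 0.05. Median-of-ratios factors gave 10 and 31. Thinning left 7 and 22 of these hosts, with medians of 1.22 and 2.83. GAS5, a growth-arrest transcript whose introns house several snoRNAs, had 6994, 5959 and 6630.4 rpm for SRSF1 and 766 and 1067 for hnRNPA1. All SRSF1 values exceeded all hnRNPA1 values, by 2.85 ± 0.20 on the log2 scale. SNHG1, another non-coding host, had 5927, 4389 and 4975 rpm for SRSF1 and 417 and 657 for hnRNPA1, also without overlap. Cytoplasmic ribosomal protein genes, many of them snoRNA hosts, were higher for SRSF1 in 31 of 41 cases (23 with median-of-ratios factors) and for hnRNPA1 in 0, or 0 at an unadjusted limma p under 0.05 (median 2.44). After thinning 8 of 15 were higher for SRSF1 (median 1.5). RPL13A, of the large ribosomal subunit, had 4353, 3567 and 4171 rpm for SRSF1 and 92.8 and 210.3 for hnRNPA1. The groups lay far apart, by 4.85 ± 0.32 (SE; limma adjusted p = 9.7e-07). RPS12, of the small subunit, differed by 4.41 ± 0.34.

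A read can be listed both under a host gene and under the snoRNA inside it. Of the reads of RPL13A, 98.6% lay in peaks overlapping a peak of another gene, and for RPS12 this was 92.7%. In all, such peaks held 22.9% ± 1.25 of SRSF1 reads and 8.12% ± 0.448 of hnRNPA1 reads. With those peaks left out, an alternative chosen after seeing the data, 10 of 18 protein-coding hosts, 3 of 4 non-coding hosts and 14 of 23 ribosomal protein genes were higher for SRSF1. In that setting limma called 1001 of all 1967 genes, 69.8% of them higher for SRSF1. The medians of the 3 lists fell to 1.83, 2.27 and 1.48, against 0.69 over all genes. GAS5 then differed by 3.45. Near-identical snoRNA copies and pseudogenes can also split reads, so single snoRNA values are uncertain to that extent.

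The largest difference of all was at CALR, which encodes calreticulin, a calcium-binding chaperone of the endoplasmic reticulum. CALR had 1278, 877 and 1044 rpm for SRSF1 and 14.6 and 13.9 for hnRNPA1. The hnRNPA1 libraries held 1 peak of 8 reads each, far under every SRSF1 library, and the difference was 6.21 ± 0.39 (SE; limma adjusted p = 7.1e-07). The strongest SRSF1 peak (chr19:13054567-13054710, hg19) and the strongest hnRNPA1 peak (chr19:13054576-13054632) overlapped. MCM7, a subunit of the replicative DNA helicase, had 536, 337 and 195 rpm for SRSF1 and 10.9 and 10.4 for hnRNPA1. Both hnRNPA1 values were the smallest listable share, so the size of its difference depends on that limit. SRSF1 library 3 was the lowest of its group but still above both hnRNPA1 libraries, and the difference of 4.94 ± 0.54 was 4.95 outside peaks shared with other genes. GIGYF1, a translational repressor, differed by 4.84 ± 0.47 and LENG8 by 4.80 ± 0.39. MTCO3P12, at 4.60 ± 0.49, is a pseudogene copy of a mitochondrial gene, so its reads may belong to the original.

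At the other end, PDE4D, a phosphodiesterase that breaks down cyclic AMP, had 34.2, 51.6 and 166 rpm for SRSF1 and 2366 and 2607 for hnRNPA1. SRSF1 was low in all libraries, with 6, 17 and 45 reads in 1, 2 and 6 peaks, while hnRNPA1 had 1300 and 1500 reads in 138 and 159 peaks. The difference was -5.22 ± 0.56 (SE; limma adjusted p = 2.4e-05). PARD3, a cell polarity scaffold, had 34.2, 63.7 and 47.9 rpm for SRSF1 and 1595 and 1804 for hnRNPA1, again far apart, at -5.17 ± 0.41. The transcription factor genes RORA (-4.38 ± 0.47) and NFIB (-4.21 ± 0.49) and the SR protein kinase gene SRPK2 (-4.25 ± 0.40) were also among the 12 furthest towards hnRNPA1. Several of these genes sat near the smallest listable SRSF1 share.

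**Figure D2:**
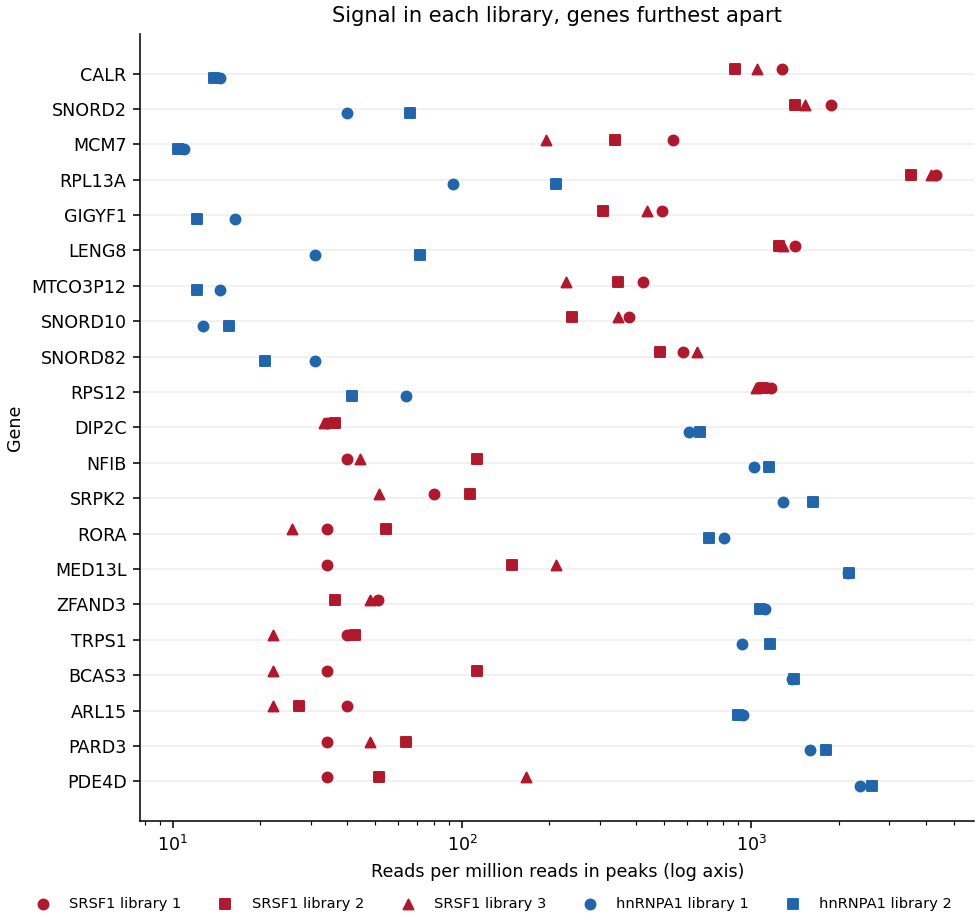
Shares in rpm (logarithmic axis) in each library for the named genes furthest towards SRSF1 (top) and furthest towards hnRNPA1 (bottom), with red for SRSF1 and blue for hnRNPA1. In each gene the red and blue points do not overlap, as the rule for naming these genes required.

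The genes with the highest shares were few and differed between the proteins. MALAT1, a nuclear-retained long non-coding RNA of splicing speckles, led for SRSF1 with 39791, 33407 and 33182 rpm for SRSF1 and 19080.0 and 17224 for hnRNPA1. SRSF1 was higher in every library, by 0.96 ± 0.11 (SE; limma adjusted p = 4.2e-05), though thinning to equal reads left 0.07. Without a trend in the variance, limma did not call it (adjusted p = 0.061). For hnRNPA1 the leading gene was SLIT2, a secreted axon guidance ligand, with 2202, 1697 and 1309 rpm for SRSF1 and 29243 and 30504 for hnRNPA1. All hnRNPA1 values were far higher, with a difference of -4.14 ± 0.20 on the log2 scale (negative values are towards hnRNPA1). LRP1B, a giant endocytic receptor, differed by -2.72 ± 0.31 and ERBB4, a receptor tyrosine kinase, by -2.18 ± 0.25. NEAT1, the scaffold RNA of paraspeckles, had 7570.2, 6147 and 6715 rpm for SRSF1 and 8426 and 9292 for hnRNPA1. The hnRNPA1 values were the higher ones by a small margin (-0.38 ± 0.14; limma adjusted p = 0.043). Leaving out any library but SRSF1 library 1 ended the call (limma adjusted p = 0.052 to 0.18), and the sign turned, to 0.62, under quantile normalization.

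Differences followed the span of the gene in the annotation. Of 234 genes under 10 kb, 164 were higher for SRSF1 and 5 for hnRNPA1, with a median difference of 1.94. Median spans were 0.08 kb for snoRNA and scaRNA genes, 5.16 kb for non-coding and 6.99 kb for protein-coding hosts, and 5.82 kb for ribosomal protein genes. The shortest class thus in part repeats the results on those lists, including reads listed under more than 1 gene. Of 122 genes over 300 kb, 21 were higher for SRSF1 and 65 for hnRNPA1, with a median of -1.51. The classes between passed from 1.12 (10 to 30 kb) through 0.40 (30 to 100 kb) to -0.35 (100 to 300 kb). Median-of-ratios factors kept the ends, at 129 against 11 under 10 kb and 9 against 73 over 300 kb, but turned the 30 to 100 kb class from 285 against 146 to 175 against 235. Across 2206 genes with a span, Spearman's rho between log span and difference was -0.41, given as a description because genes are not independent replicates and share the same 5 libraries. Genes over 300 kb took 4.43% ± 1.18 of SRSF1 reads (SD, n = 3) and 23.7% ± 0.197 of hnRNPA1 reads (SD, n = 2). The SRSF1 libraries held fewer reads, and the minimum of 6 reads applied to each peak. The part of depth and of that minimum in the relation with span was not tested. In a list of 20 very long genes, 12 were higher for hnRNPA1 and 2 for SRSF1 (median -2.26), the 2 being CSMD3 (2.67 ± 0.54) and LPP (2.30 ± 0.37). PRKG1, a cyclic GMP-dependent kinase, differed by -4.13 ± 0.45 and GPC6, a glypican, by -4.09 ± 0.42.

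**Figure D3:**
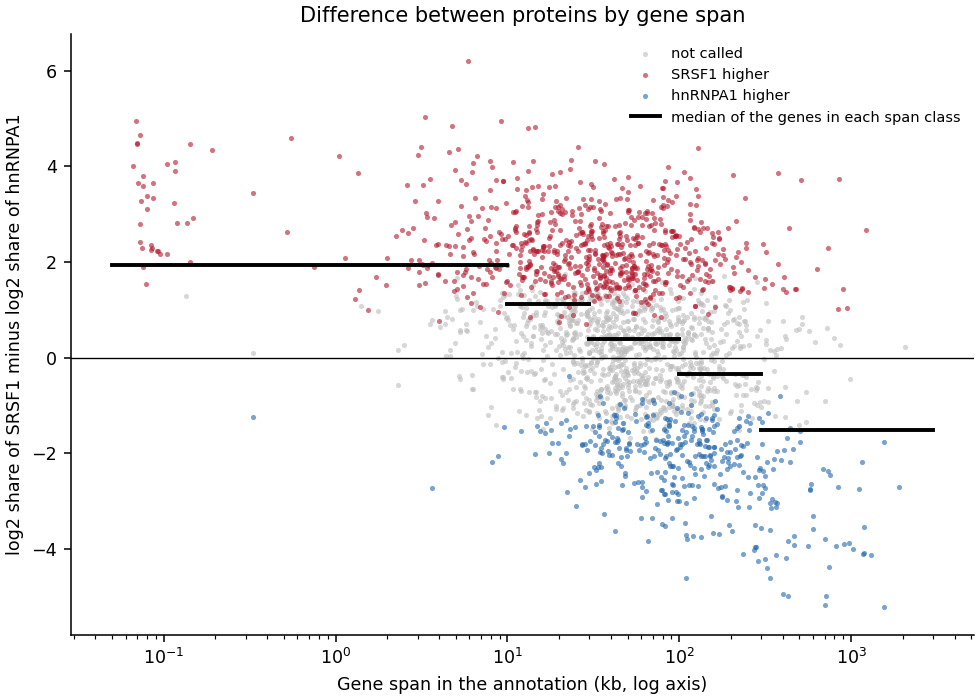
Difference between the proteins (log2 share of SRSF1 minus log2 share of hnRNPA1) against gene span in kb (logarithmic axis), 1 point per gene, with black bars at the median of each span class. The medians pass from 1.94 under 10 kb to -1.51 over 300 kb.

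Genes encoding the splicing machinery were called in both directions, as were all genes (35.4% higher for SRSF1, 17.6% for hnRNPA1). Of 22 hnRNP genes, 8 were higher for SRSF1, near the share of all genes, and 6 for hnRNPA1, and with median-of-ratios factors this turned to 4 and 9. HNRNPL, which binds CA-rich RNA, had 742, 683 and 848 rpm for SRSF1 and 173 and 176 for hnRNPA1. All SRSF1 values were higher, by 2.11 ± 0.30 (SE; limma adjusted p = 1.9e-04). HNRNPD, which binds AU-rich elements, differed by -1.99 ± 0.42. HNRNPH1, which binds G-runs, had one of the highest SRSF1 shares, with 5397, 5697 and 5804 rpm for SRSF1 and 3182 and 3017 for hnRNPA1. Its groups did not overlap, and the difference was 0.86 ± 0.15. The call was lost with median-of-ratios factors (limma adjusted p = 0.14), after thinning (limma adjusted p = 0.62) and without a variance trend (limma adjusted p = 0.082).

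SR protein genes split evenly, with 3 of 10 higher for SRSF1 and 3 for hnRNPA1, or 2 and 4 with median-of-ratios factors. SRSF2, which acts at exonic enhancers, had 325, 801 and 667 rpm for SRSF1 and 94.7 and 109 for hnRNPA1. SRSF1 was higher in each library, by 2.46 ± 0.42. TRA2B, which binds GAA repeats, went the other way with 183, 60.7 and 25.8 rpm for SRSF1 and 508 and 421 for hnRNPA1. The SRSF1 values varied widely yet all lay under the hnRNPA1 values, a difference of -2.81 ± 0.67 (SE; limma adjusted p = 0.0047). Among 17 SR-related cofactors and SR kinases, 3 were higher for SRSF1, led by ACIN1 (2.68 ± 0.42) and SRRM2 (2.36 ± 0.32), and 6 for hnRNPA1, including SRPK2 with 79.9, 106 and 51.6 rpm for SRSF1 and 1289 and 1630.0 for hnRNPA1.

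Of 11 genes for 3' splice site and U2 factors, 3 were higher for SRSF1 and 1 for hnRNPA1, which turned to 1 and 3 with median-of-ratios factors. SF3B1, a U2 particle subunit, differed by 1.76 ± 0.34. Of 12 other spliceosome genes, 6 were higher for SRSF1 and 0 for hnRNPA1, where all genes gave 35.4% and 17.6%. The 0 held at an unadjusted limma p under 0.05, but median-of-ratios factors gave 5 and 2. Of the 49 genes of that list with any peak, 9 had peaks in both hnRNPA1 libraries and in no SRSF1 library, and 1 had the reverse pattern. Over all 10603 genes these were 1340 and 545, and the smallest listable share differed between the proteins. The list's median of 1.08 became -0.07 without peaks overlapping other genes (4 and 1 of 11). It was -0.33 among 26 genes with a peak in at least 3 libraries. The widest of them was SNRNP70, the 70K protein of the U1 particle, with 1249, 983 and 841 rpm for SRSF1 and 56.4 and 76.5 for hnRNPA1. SRSF1 was far higher in every library, by 3.94 ± 0.34.

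The transcripts of the proteins under study were themselves bound. HNRNPA1 had 856, 1084 and 988 rpm for SRSF1 and 417 and 525 for hnRNPA1. SRSF1 had the higher share in each library, by 1.05 ± 0.27 (SE; limma adjusted p = 0.0066), which limma with median-of-ratios factors did not call (adjusted p = 0.15). Reads of the transgene and of the endogenous gene cannot be told apart in this list. SRSF1's own transcript had 867, 1135 and 1471 rpm for SRSF1 and 703 and 638 for hnRNPA1. Its SRSF1 values were higher by 0.76 ± 0.28 (limma adjusted p = 0.038). That call was lost without SRSF1 library 2 or 3 or without either hnRNPA1 library. It was also lost with median-of-ratios factors, which lowered every difference by 0.58, and thinning turned its sign. U2AF2, the large subunit of the 3' splice site factor U2AF, had 371, 212 and 269 rpm for SRSF1 and 111 and 103 for hnRNPA1. The difference of 1.38 ± 0.40 (limma adjusted p = 0.013) was lost without hnRNPA1 library 2 (limma adjusted p = 0.069) and with median-of-ratios factors (limma adjusted p = 0.115).

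**Figure D4:**
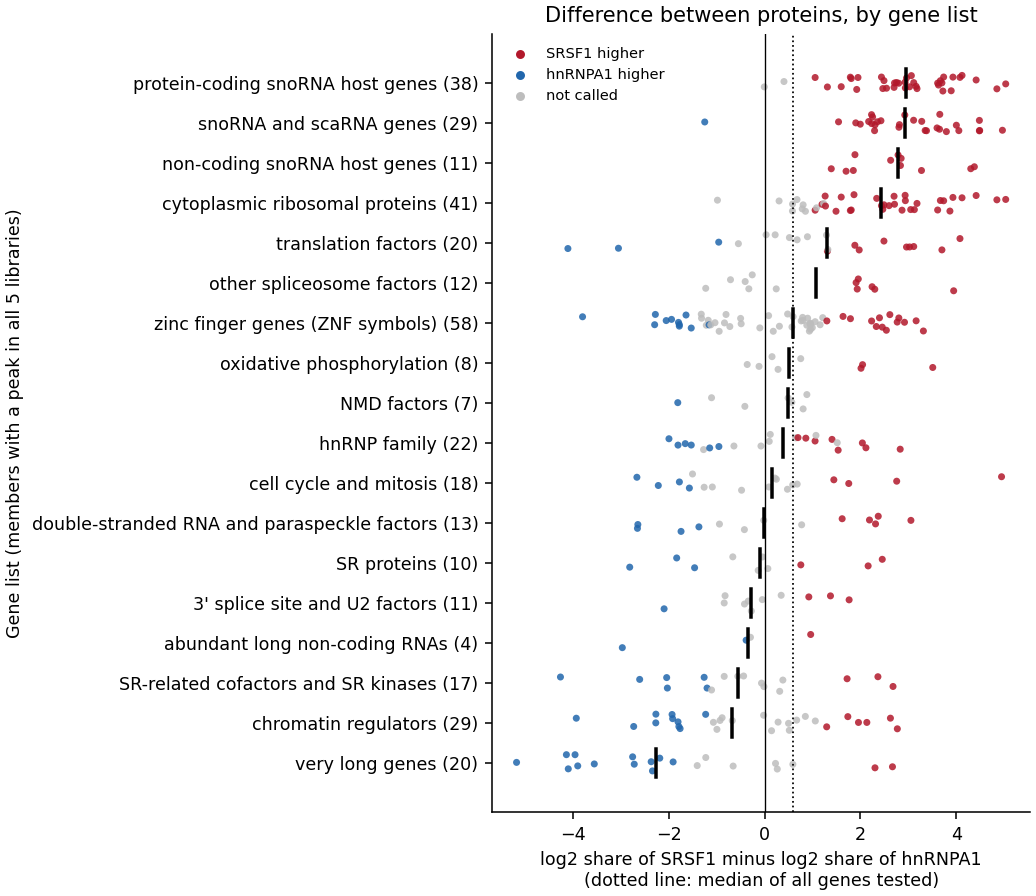
Difference between the proteins (log2 share of SRSF1 minus log2 share of hnRNPA1) for the members of each gene list, 1 point per gene. A black bar marks the list's median and a dotted line the median of all genes tested, 0.59. Hosts, snoRNAs and ribosomal protein genes sit to the right and very long genes to the left.

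Of 20 translation factor genes, 9 were higher for SRSF1 and 3 for hnRNPA1, where all genes gave 35.4% and 17.6%. Without peaks overlapping other genes the counts were 5 and 2 of 15, with a median of 0.39 against 0.69 over all genes. EEF2, the elongation factor that moves the ribosome along, differed by 3.70 ± 0.33. EIF4A1, a helicase of translation initiation, differed by 4.08 ± 0.29 but by 1.45 outside peaks overlapping other genes. EIF3E, an initiation factor subunit, went the other way with 34.2, 18.2 and 25.8 rpm for SRSF1 and 400.5 and 467 for hnRNPA1. The hnRNPA1 values were all higher, with a difference of -4.10 ± 0.50. Its SRSF1 values lay at or near the smallest listable shares of 34.2, 18.2 and 22.1 rpm, so the size of this difference depends on that limit. Of 29 chromatin regulators, 6 were higher for SRSF1 and 10 for hnRNPA1, with a median of -0.67, whereas counting peaks instead of reads gave 8 and 4. CHD4, a nucleosome remodeller, differed by 2.77 ± 0.40, and STAG2, a cohesin subunit, by -3.92 ± 0.49. In SRSF1 library 1 STAG2 had the smallest listable share, 34.2 rpm. Of 13 double-stranded RNA and paraspeckle factors, 5 were higher for SRSF1 and 4 for hnRNPA1, or 3 and 5 with median-of-ratios factors. Within that list the paraspeckle protein genes NONO (3.05 ± 0.39) and MATR3, a nuclear matrix protein (-1.74 ± 0.26), lay on opposite sides. Against the 35.4% and 17.6% of all genes, cell cycle genes gave 4 and 4 of 18, or 2 and 7 with median-of-ratios factors, and ZNF genes 14 and 11 of 58, or 11 and 19. Of 7 genes of nonsense-mediated decay 0 were higher for SRSF1 and 1 for hnRNPA1, and of 8 oxidative phosphorylation genes 3 were higher for SRSF1 and 0 for hnRNPA1, with the zeros the same at an unadjusted limma p under 0.05. Of the 41 oxidative phosphorylation genes with any peak, 6 had peaks in both hnRNPA1 libraries alone and 1 in all SRSF1 libraries alone. Over all 10603 genes these were 1340 and 545.

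The number of peaks per gene is given as a description, since the genes were sorted by reads in the same peaks and the hnRNPA1 libraries were deeper. In genes higher for hnRNPA1, the libraries of hnRNPA1 had 34.1 and 34.0 peaks per gene and those of SRSF1 2.99, 6.51 and 4.97. The strongest peak there held a median of 12.1% and 12.4% of the gene's reads for hnRNPA1 and 62.5%, 38.1% and 47.4% for SRSF1. In genes higher for SRSF1, SRSF1 had 3.37, 4.66 and 4.27 peaks per gene and hnRNPA1 3.30 and 3.50. The strongest peak held 62.5%, 55% and 57.9% for SRSF1 and 100% and 64.7% for hnRNPA1. In both sets the protein with fewer reads had the larger part of them in its strongest peak in every library.

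Of SRSF1 peaks, 36.2%, 28.8% and 31.0% overlapped an hnRNPA1 peak by at least 1 nt on the same strand, a mean of 32.0% ± 3.79 (SD, n = 3). The share overlapping a peak of another SRSF1 library was 70.2%, 47.9% and 56.6%. By reads, with each peak counted once, these shares were higher. Peaks overlapping an hnRNPA1 peak held 56.7%, 51.5% and 53.7% of SRSF1 reads, and those overlapping another SRSF1 library 88.1%, 76.9% and 81.6%. In the other direction, 10.8% and 12.6% of hnRNPA1 peaks lay on an SRSF1 peak, and 39.6% and 38.7% on a peak of the other hnRNPA1 library. By reads these were 23.0% and 25.6%, and 58.8% and 59.0%. The hnRNPA1 libraries held more peaks, a mean of 43752 against 13540. No share was adjusted for this, so the 2 directions cannot be set against each other. The SRSF1 mean was 24.2% with an overlap of at least 50% of the peak, and 21.2% without hnRNPA1 library 2. The strongest peaks of both proteins overlapped in 354 of 813 genes higher for SRSF1 (43.5%) and in 15 of 404 genes higher for hnRNPA1 (3.71%), where 559 of all 2299 genes (24.3%) and 17.6% of the uncalled genes did. Their median distance was 0.253 kb in the first set and 18.0 kb in the second, and the second set also holds longer genes (median span 109 kb against 30.7 kb) with more hnRNPA1 peaks each. The part of gene length and peak number in this was not tested.

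Many genes were listed for 1 protein alone. A peak in all SRSF1 libraries and in neither hnRNPA1 library was found for 545 genes, and a peak in both hnRNPA1 libraries and in no SRSF1 library for 1340. The latter included COL25A1, a transmembrane collagen, at 886 and 879 rpm, and BCL11A, a transcriptional repressor, at 490 and 447, both chosen after their values were seen. The smallest listable share was higher for SRSF1, so the 2 counts cannot be set against each other.

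In control cells, with endogenous hnRNPA1 alone, the same comparison called 908 of 2419 genes (37.5%). Of 1459 genes with a peak in all 10 libraries of both states, 1140 had a difference of the same sign in both. The difference itself changed with overexpression at 123 of these genes, which is 8.43% (limma interaction, adjusted p under 0.05), being raised towards SRSF1 at 81 and lowered at 42. That count rests on single libraries: it fell to 2 without hnRNPA1 control library 1, to 4 without hnRNPA1 control library 2 and to 4 without hnRNPA1 overexpression library 1. Across the settings that left out 1 library it ran from 2 to 171. Median-of-ratios factors turned the balance to 45 raised and 75 lowered. The hnRNPA1 control libraries were also the deepest of the 10. With all libraries thinned to equal reads, 41 of 156 genes changed, 25 raised and 16 lowered.

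Group medians in both states are given as a description. Over the genes with peaks in all 10 libraries, the snoRNA and scaRNA median was 3.65 in control and 3.28 in overexpressing cells (17 genes), that of ribosomal protein genes 2.37 and 2.45 (36 genes), and that of very long genes -2.64 and -2.27 (14 genes). Medians of other lists changed side, from 0.52 to -0.56 for SR-related cofactors and SR kinases (17 genes) and from 0.82 to -0.27 for 3' splice site and U2 factors (11 genes). Those of abundant long non-coding RNAs (3 genes) and of double-stranded RNA and paraspeckle factors (11 genes) also did, from 0.81 to -0.38 and from 0.07 to -0.02. Chromatin regulators went from -0.02 to -0.67 (21 genes). None of these shifts of a median was tested. RNU2-2P, a copy of the U2 spliceosomal RNA gene whose reads may belong to other copies, had 639, 555 and 494 rpm for SRSF1 and 27.3 and 27.8 for hnRNPA1 in overexpressing cells. In control cells it had 259, 224 and 265 for SRSF1 and 187 and 194 for hnRNPA1. The SRSF1 values were higher and the hnRNPA1 values lower in overexpressing cells, with no overlap between states for either protein, and the change in the difference was 3.96 ± 0.52 (SE; limma adjusted p = 0.0031). With peaks counted instead of reads the change was -0.44 (limma adjusted p = 0.71).

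**Figure D5:**
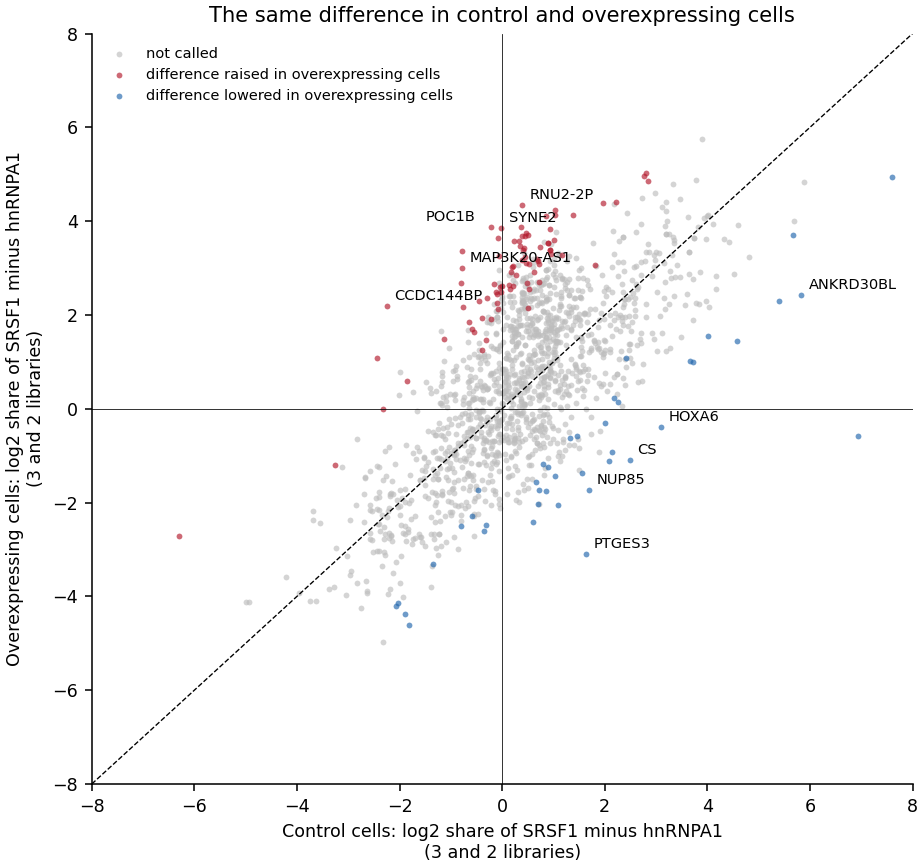
Difference between the proteins (log2 share of SRSF1 minus log2 share of hnRNPA1) in control cells (horizontal) and overexpressing cells (vertical) for the 1459 genes with peaks in all 10 libraries, with the genes whose difference changed in colour. Most points lie in the same quadrant in both states, and RNU2-2P and PTGES3 lie far from the line of equal differences.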

How the data were processed

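The deposited peak lists name, for each peak, a gene ID, a peak number and the reads in the peak, and give a p-value, per the file headers made by CLIPper. TopHat, Bowtie2 and hg19 are named in the submitters' processing notes, and their versions are not given in the sources used here. Whether peaks were called with an input is not given either. The p-value column was not used for a test.

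Reads were summed per gene ID and scaled to 1e+06 reads in peaks per library (rpm). The log2 values of the genes with a peak in all 5 libraries (3 of SRSF1, 2 of hnRNPA1) were fitted with limma 3.58.1 in R 4.3.3 (trended eBayes, Benjamini-Hochberg). Genes listed in fewer libraries were left out of the fit. The change between cell states was the interaction over 10 libraries. Overlaps used bedtools 2.31.1, and tables Python 3.11.15. On simulated data 2065 genes were tested, of which 85 had a change of 1.5 (log2) and 73 a change of 3. Of these changes 81.2% and 100% were recovered, and 2.74% of calls were false. The percentages cover tested genes only, so a change at a simulated gene left out before the test does not count as missed. In the data a far larger part of the genes was called (52.9%), so these rates may not hold there. GENCODE v29 matched 9980 of 10603 gene IDs (94.1%) by ID only, and gave a span for 2206 members (96.0%). Peak sequences and the exon or intron position of peaks were not analysed here.

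Named were HNRNPA1, SRSF1 and U2AF2, the 12 furthest called genes in each direction with no overlap and at least 100 rpm, the 6 highest genes per protein, up to 3 called members per list and direction, and up to 5 genes per direction of the interaction. The members and lists were chosen with earlier results of these data known. Levels of a few sex-linked genes are not reported here. Some named genes are not reported here.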

Additional observations from a re-analysis of the deposited data

Results flagged for a closer look

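The difference between SRSF1 and hnRNPA1 (log2 share of SRSF1 minus log2 share of hnRNPA1) changed between control and overexpressing cells at 123 genes by limma's interaction test, 93 of them with a mean of at least 100 rpm. The 5 furthest of these with a gene symbol in each direction are given. The change was towards SRSF1 at CCDC144BP (4.45), POC1B (4.09), RNU2-2P (3.96), SYNE2 (3.87) and MAP3K20-AS1 (3.78). It was towards hnRNPA1 at PTGES3 (-4.73), CS (-3.57), HOXA6 (-3.48), NUP85 (-3.43) and ANKRD30BL (-3.39). PTGES3, which encodes the HSP90 co-chaperone p23, had 171, 18.2 and 188 rpm for SRSF1 and 772 and 666 for hnRNPA1 in overexpressing cells. In control cells it had 984, 1879 and 860 for SRSF1 and 406 and 349 for hnRNPA1. The proteins thus changed order, with no overlap in either state (limma adjusted p = 0.027). CCDC144BP, a pseudogene whose reads may belong to a copy, had 331, 455 and 384 for SRSF1 and 89.2 and 79.9 for hnRNPA1 in overexpressing cells, and 34.5, 48.0 and 132 against 309 and 267 in control cells. All of the 10 calls but that of RNU2-2P were lost when either hnRNPA1 control library or hnRNPA1 overexpression library 1 was left out. Some were also lost without hnRNPA1 overexpression library 2. With peaks counted instead of reads 3 calls were lost, and the change at RNU2-2P turned to -0.44.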

How the results depend on the processing

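The count of genes called by limma was 2570 with no filter (1303 higher for SRSF1, 1267 for hnRNPA1), 448 with peaks of at least 10 reads (323 and 125), 312 after thinning (123 and 189) and 378 without each gene's strongest peak (249 and 129). Genes higher for SRSF1 numbered 1255 with a peak in at least 3 libraries, 539 with median-of-ratios factors and 485 with quantile normalization. Genes higher for hnRNPA1 numbered 184 when peaks were counted. Leaving out 1 library gave 973 to 1416 calls, 734 to 829 for SRSF1 and 239 to 635 for hnRNPA1. For the change between cell states, median-of-ratios factors gave 45 raised and 75 lowered, counting peaks gave 23 raised, and thinning gave 41 (25 and 16). Leaving out 1 library gave 2 to 171 changes, 1 to 100 raised and 1 to 71 lowered. The mean overlap of SRSF1 peaks was 24.2% at the stricter setting and 21.2% to 33.6% with 1 library left out.

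With the replicate number as a block, limma called 1064 genes (705 and 359), kept 104 of 111 named genes and called 48 changes between states (30 and 18). The numbers were not taken as pairs: deviations of same-numbered libraries correlated at -0.089 and -0.0555.

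Signs that turned were SRSF1 after thinning (-0.073), NEAT1 with peaks counted (0.64), quantile normalization (0.62) and strongest peaks left out (0.036), and, with peaks counted, TRA2A (0.44), SRSF4 (0.30), SCARNA7 (2.07) and the change at RNU2-2P (-0.44). SF3B3 turned to -0.63 without peaks overlapping other genes, and EIF4G1 to -0.20 without peaks listed under more than 1 gene. After thinning, with peaks left under 6 reads dropped, SRSF1 libraries had 900 more peaks on average. The differences from hnRNPA1 were then -5.67 nt in median peak length and -9.15 points in the share of reads in the top 100 genes. The cause was not tested. Depth sets the smallest listable share, 18.2 to 34.2 rpm for SRSF1 and 10.4 and 10.9 rpm for hnRNPA1.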
